A study of Mus musculus with 6 samples.

Results

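The genes described here had lower levels in Beko cells when Notch activity was inhibited in either of 2 ways, and they were then read in another experiment in which Notch activity was raised. They are the 58 genes, of 12145 that passed a floor on low levels and of 22414 on the array, whose log2 level was at least 0.58 lower with DAPT than with DMSO and at least 0.58 lower in the DNMAML-ER line with OHT than with ethanol. A log2 difference of 0.58 is a 1.49-fold change. The floor required a log2 level of 5.54 on at least 1 of the 6 arrays. The rule found 61 genes and left out 3 of them, Jaml, Adgrg1 and Ngfr, whose names came with the rule.

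Beko is a mouse T-lineage leukaemia line. Parental cells were grown with DAPT at 10 μM or with DMSO for 24 h. Cells infected and selected for a DNMAML-ER fusion were grown with OHT, a tamoxifen metabolite, at 0.75 μg/mL or with ethanol for 48 h, and cells carrying a Notch1-ER fusion were treated in the same way. There was 1 array for each of the 6 conditions, so the spread between replicate cultures is unknown, and 0 tests were made of these genes. The DAPT pair differed from the fusion pairs in construct, vehicle and time. The labels do not say whether the fusion lines were single clones, and they give the OHT hydroxyl group a different position from the design text.

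Notch is a receptor on the cell surface. When a ligand binds, the protease γ-secretase releases its intracellular part, which enters the nucleus, joins the DNA-binding protein RBPJ and recruits a Mastermind (MAML) coactivator to switch on target genes. In T-cell progenitors the pathway drives commitment to the T lineage, and its activation by mutation is common in T-cell leukaemia. DAPT blocks γ-secretase, and so acts on every Notch receptor and on other γ-secretase substrates. DNMAML is a truncated Mastermind that takes a place in the RBPJ complex without activating transcription. An ER fusion carries a hormone-binding part of the oestrogen receptor, which keeps it inactive until OHT is added. A gene that needs active Notch would be lower on the DAPT and DNMAML-ER OHT arrays than on their vehicle arrays. A gene that rises with added Notch activity would be higher on the Notch1-ER OHT array than on its vehicle array. A gene can meet the first of these without the second.

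The genes carry Ensembl identifiers only. None of the identifiers on the array (0 of 22414) matched the gene table used here, so the members have no symbol, function, position or promoter sequence in this text. For the same reason the T-lineage identity of the cells, the levels of Notch1 and Maml1, and the known Notch targets and pathway genes were not analysed here. The 4 members printed with identifiers are the 2 with the highest and the 2 with the lowest Notch1-ER differences. Others are called by their rank in that difference, from 1 for the highest to 58 for the lowest.

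The array medians lay between 5.43 and 5.61. Of the 58 members, 41 were at or above 5.54 on all 6 arrays and 17 were under it on at least 1. In 9 of these 17, both inhibitor arrays were under the floor. In 3, all 4 arrays of the inhibitor pairs were under it, so these genes passed through a Notch1-ER array alone, and 2 members reached the floor on a single array. Mean levels over the 6 arrays ran from 4.40 to 11.51, with a median of 7.50, against 7.64 over all genes past the floor.

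The 2 inhibitor differences chose the members and are given as a description. Among all 12145 genes, 2.94% were lower by this size with DAPT and 1.36% with DNMAML-ER, and 0.502% were lower with both. Over the members, the DAPT difference ran from -2.71 to -0.59 with a median of -1.02. The DNMAML-ER difference ran from -2.79 to -0.58 with a median of -0.88. DAPT gave the deeper difference in 35 members and DNMAML-ER in 23. A difference of -1 or below was found in 31 members with DAPT, in 21 with DNMAML-ER and in 11 with both. The sizes under the 2 inhibitors correlated with r = 0.39 (Pearson) and rho = 0.37 (Spearman) across the 58 genes, which share the 4 arrays and the limit set by the rule.

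**Figure D1:**
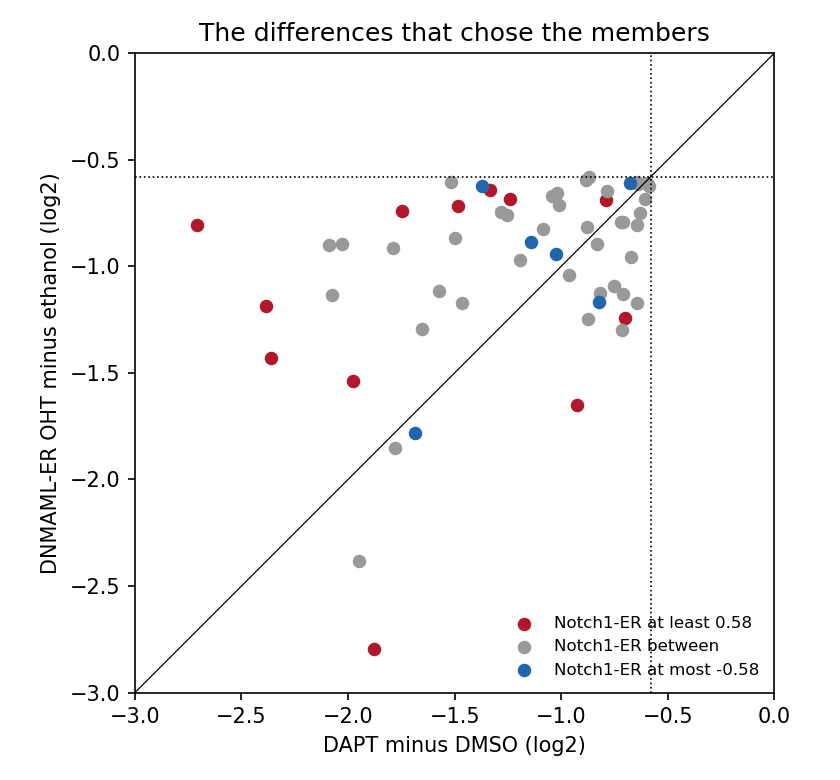
Each point is 1 of the 58 genes, with the DAPT minus DMSO log2 difference on the horizontal axis and the DNMAML-ER OHT minus ethanol log2 difference on the vertical axis. Dotted lines mark -0.58, the line of equal differences is solid, and colours give the class in the Notch1-ER pair. Most points lie above the line of equal differences, since DAPT gave the deeper difference in 35 of the 58 genes.

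Many members lay close to the limit: in 18, the smaller of the 2 inhibitor effects was within 0.1 of it. The 3 members just inside had DAPT and DNMAML-ER differences of -0.87 and -0.58, of -0.59 and -0.63, and of -0.60 and -0.61. The 3 genes just outside had -0.91 and -0.58, -0.57 and -0.67, and -0.75 and -0.57. Genes on the 2 sides of the limit therefore differed by little in the values that parted them.

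In the Notch1-ER pair, which the rule used only through the floor, the members leaned towards higher levels with OHT but did not move as 1 group. Their median difference was 0.17, against -0.01 over all genes past the floor, and they ran from -1.08 to 1.42. Of the 58, 37 were above 0 (63.8%), where 47.3% of all genes were. At a size of 0.58, 12 were higher with OHT (20.7%), against 1.53% of all genes, and 6 were lower (10.3%), against 0.815% of all genes. The remaining 40 lay between, 16 members being within 0.2 of 0. These counts hold the 3 members that passed the floor through a Notch1-ER array alone, with rank 5 among the 12. A floor on the mean of the 6 arrays left those 3 out. It kept 52 members, 32 of them above 0 (61.5%). Of the 52, 10 were at least 0.58 higher (19.2%, against 1.37% of all genes) and 6 at least 0.58 lower (11.5%, against 0.768%). At a Notch1-ER size of 1, 4 of the 58 members were higher (6.90%), against 0.379% of all genes, and 1 was lower (1.72%), against 0.148%. The lean depended on the size asked of the inhibitors: the median was 0.43 over the 11 genes lower by 1 or more with both, and -0.021 over the 191 lower by 0.4 or more. Of those 191, 9.95% were at least 0.58 higher with Notch1-ER and 3.66% at least 0.58 lower.

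**Figure D2:**
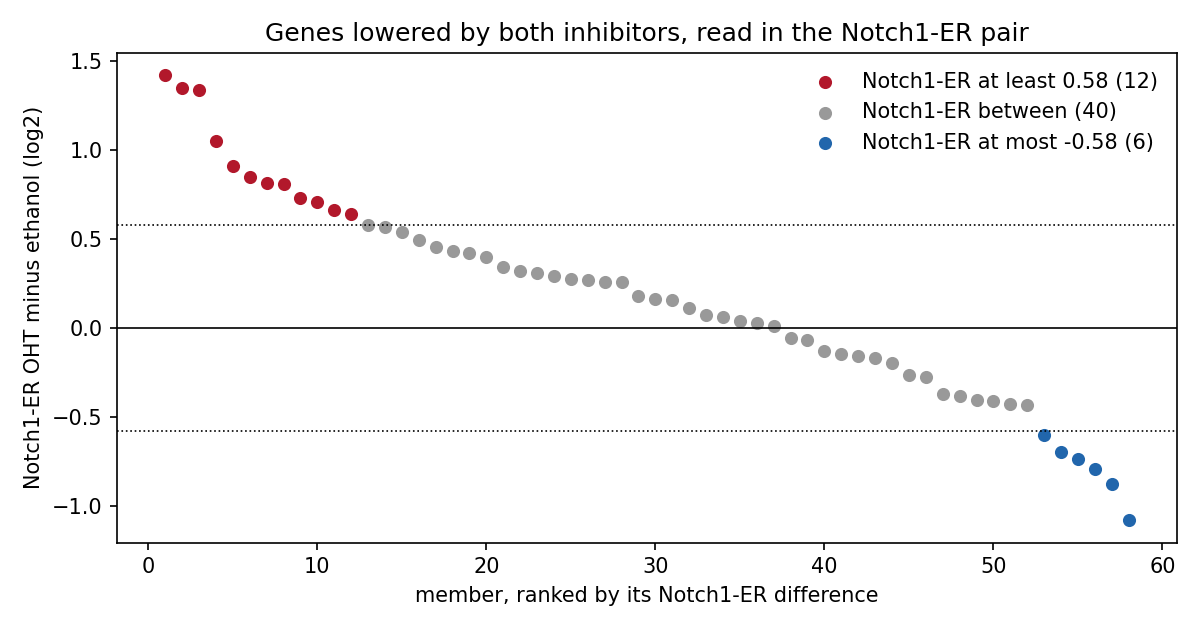
The 58 genes are ranked from left to right by the Notch1-ER OHT minus ethanol log2 difference, which is on the vertical axis. Dotted lines mark 0.58 and -0.58. The 12 higher genes run from 0.64 to 1.42, the 6 lower genes from -1.08 to -0.60, and the 40 others fill the range between without a gap at 0.

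These shares have to be read beside the spread of the members between arrays that received no inhibitor and no OHT. The members varied more than other genes there as well. Between the ethanol arrays of the Notch1-ER and DNMAML-ER lines, 6.90% of the members differed by 0.58 or more, against 1.05% of all genes, and the standard deviation across genes was 0.34, against 0.19. Between the DNMAML-ER ethanol array and the DMSO array the share was 46.6%, against 8.97% of all genes, and between the Notch1-ER ethanol array and the DMSO array it was 39.7%, against 8.95%. The DMSO and DNMAML-ER ethanol arrays entered the rule. The ethanol arrays differ from each other in construct, and from the DMSO array in construct, vehicle and time. This spread is therefore not a replicate error. Its part in the Notch1-ER counts was not tested. Per gene, the Notch1-ER difference exceeded the range of the member's own 3 vehicle levels in 17 of 58 members (29.3%), against 21.8% of all genes. Among the 17 were 6 of the 12 higher and 5 of the 6 lower members. Those classes were chosen for a difference of at least 0.58 in size, which makes exceeding the range more likely. The share among all genes with a difference of that size is not given here, so 21.8% is no comparison for them. The DMSO and DNMAML-ER ethanol levels in the vehicle range had entered the rule. The Notch1-ER ethanol level in that range is also the level from which the Notch1-ER difference was taken.

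The 12 members that were higher with Notch1-ER had the sign that a rise with added Notch activity would have in that pair. Their signs in the inhibitor pairs were fixed by the choice of members. Whether these or the other members depend on Notch was not tested. ENSMUSG00000046997 had the largest Notch1-ER difference. Its log2 level was 8.37 with OHT and 6.95 with ethanol in the Notch1-ER line, 5.35 with DAPT and 6.84 with DMSO, and 6.23 with OHT and 6.95 with ethanol in the DNMAML-ER line. It was thus 2.67-fold higher with Notch1-ER, 2.80-fold lower with DAPT and 1.65-fold lower with DNMAML-ER. Its 3 vehicle levels lay within 0.12 of each other, and all 3 treated arrays lay outside them.

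ENSMUSG00000049154 came next, with 7.53 with OHT and 6.18 with ethanol in the Notch1-ER line, 6.56 with DAPT and 7.35 with DMSO, and 5.22 with OHT and 5.91 with ethanol in the DNMAML-ER line. The differences were 2.54-fold higher, 1.73-fold lower and 1.61-fold lower. Here the vehicle arrays spanned 1.45 on the log2 scale, more than any of the 3 differences, and the DAPT array lay above the Notch1-ER ethanol array. The Notch1-ER OHT level of this gene was close to the DMSO level of the parental cells.

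The members ranked 3 and 5 had levels under the floor on most arrays. Rank 3 had a level of 5.52 with OHT and 4.18 with ethanol in the Notch1-ER line, 3.26 with DAPT and 5.97 with DMSO, and 3.88 with OHT and 4.69 with ethanol in the DNMAML-ER line. Only the DMSO array was above the floor. Rank 5 had 7.03 with OHT and 6.12 with ethanol in the Notch1-ER line, 2.04 with DAPT and 3.92 with DMSO, and 2.24 with OHT and 5.03 with ethanol in the DNMAML-ER line. It passed the floor through the Notch1-ER arrays alone, and its DNMAML-ER difference of -2.79 was the deepest of all 12145 genes. Levels under the floor are weak for these arrays, and the lowest of them here, 2.04, is near the smallest value of 1.51. At such levels a log2 difference need not reflect a fold change in RNA.

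Rank 4 had a level of 7.70 with OHT and 6.65 with ethanol in the Notch1-ER line. In the inhibitor pairs it had 4.65 with DAPT and 5.99 with DMSO, and 5.46 with OHT and 6.11 with ethanol in the DNMAML-ER line. Both inhibitor arrays were under the floor and the other 4 above it. Rank 6 had 9.06 with OHT and 8.21 with ethanol in the Notch1-ER line, 5.94 with DAPT and 6.64 with DMSO, and 6.81 with OHT and 8.05 with ethanol in the DNMAML-ER line. Both fusion lines had more signal for this gene on ethanol than the parental cells on DMSO, and the DNMAML-ER OHT array lay above DMSO.

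Rank 7 was strongly expressed, with 11.00 with OHT and 10.19 with ethanol in the Notch1-ER line, 8.36 with DAPT and 10.72 with DMSO, and 8.52 with OHT and 9.95 with ethanol in the DNMAML-ER line. Its 2 inhibitor arrays lay more than a log2 unit below every other array. Rank 8 had 8.05 with OHT and 7.24 with ethanol in the Notch1-ER line, 6.09 with DAPT and 7.33 with DMSO, and 6.40 with OHT and 7.09 with ethanol in the DNMAML-ER line. Its vehicle levels lay within 0.24 of each other, less than any of its 3 differences. Rank 9 had 9.70 with OHT and 8.97 with ethanol in the Notch1-ER line, 7.54 with DAPT and 9.92 with DMSO, and 7.52 with OHT and 8.70 with ethanol in the DNMAML-ER line. It was 1 of 2 genes of the 12, with rank 3, whose highest level was on the DMSO array.

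The last 3 of the 12 were among the more abundant members. Rank 10 had 10.21 with OHT and 9.50 with ethanol in the Notch1-ER line, 7.19 with DAPT and 9.17 with DMSO, and 7.74 with OHT and 9.28 with ethanol in the DNMAML-ER line. Rank 11 had 11.73 with OHT and 11.07 with ethanol in the Notch1-ER line, 9.46 with DAPT and 11.21 with DMSO, and 10.26 with OHT and 11.00 with ethanol in the DNMAML-ER line. In both genes the vehicle arrays agreed more closely, within 0.34 and 0.21, than the treated arrays departed from them. Rank 12 had 12.04 with OHT and 11.40 with ethanol in the Notch1-ER line, 8.63 with DAPT and 9.56 with DMSO, and 9.85 with OHT and 11.50 with ethanol in the DNMAML-ER line. Its vehicle levels spanned 1.95, with DMSO the low one.

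As a class, the 12 had a median level of 8.72 with OHT and 7.73 with ethanol in the Notch1-ER line. Of the 12, 7 were at or above the floor on all 6 arrays. Their median DAPT difference was -1.62, against -0.88 in the 40 members between the limits and -1.08 in the 6 lower members. The median DNMAML-ER differences of the 3 classes were closer, at -0.996, -0.85 and -0.92. Across the 58 members the Notch1-ER difference correlated with the DAPT difference at r = -0.29 (Pearson) and rho = -0.27 (Spearman), and with the DNMAML-ER difference at r = -0.07 and rho = -0.12. These are descriptions across genes read on the same arrays. The 3 genes left out by the rule, Jaml, Adgrg1 and Ngfr, had Notch1-ER differences of 1.30, 1.08 and 1.11.

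**Figure D3:**
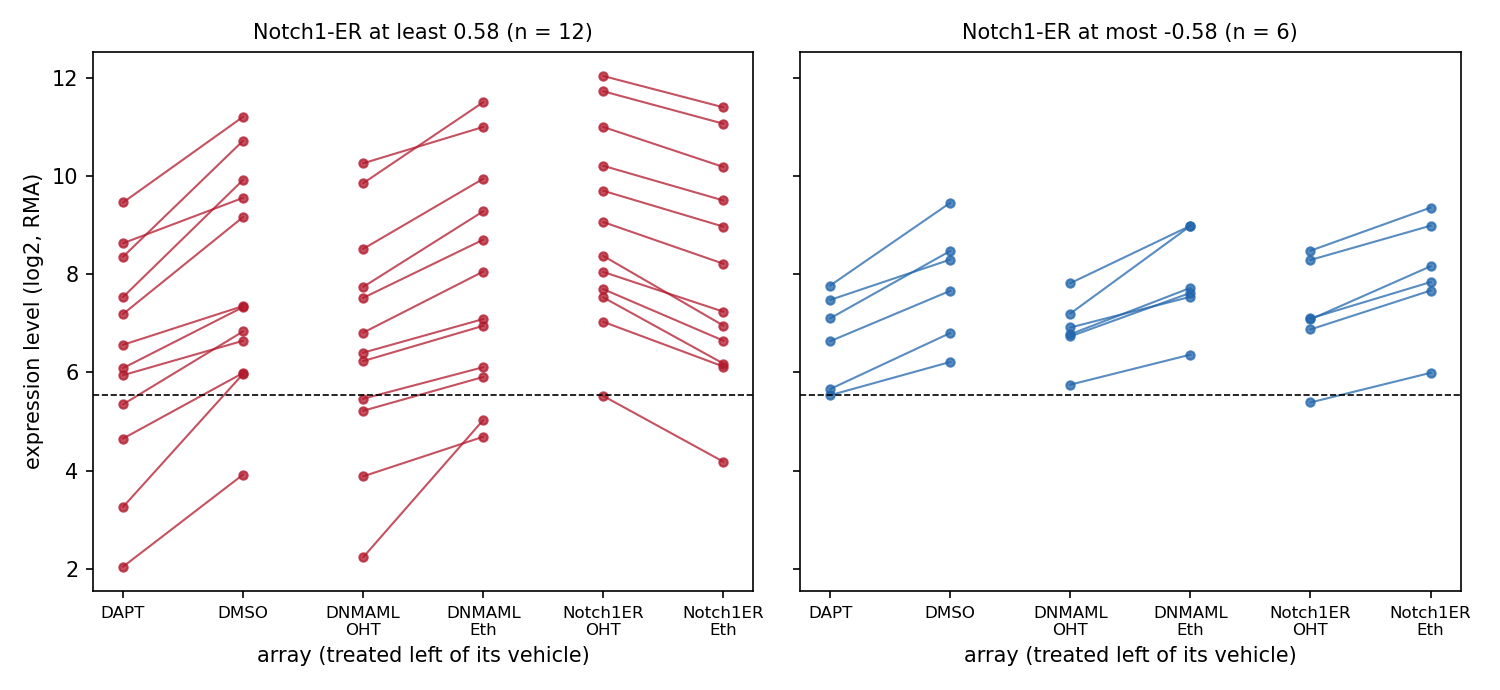
Log2 levels on the 6 arrays are shown for the 12 members at least 0.58 higher (left) and the 6 at least 0.58 lower (right) with OHT in the Notch1-ER line, with each treated array left of its vehicle and a line joining the pair for each gene. The dashed line is the floor of 5.54. In the left panel the lines slope up towards the vehicle in the inhibitor pairs and down in the Notch1-ER pair, and in the right panel they slope up in all 3 pairs. These directions were fixed by the choice of the members and classes.

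The 6 members that were lower with OHT in the Notch1-ER line were lower on all 3 treated arrays than on the matching vehicle array. This was fixed by the choice of the members and of this class. ENSMUSG00000040536 had the lowest Notch1-ER difference, with a level of 7.08 with OHT and 8.16 with ethanol in that line, 7.10 with DAPT and 8.47 with DMSO, and 6.92 with OHT and 7.54 with ethanol in the DNMAML-ER line. It was 2.11-fold lower with Notch1-ER, 2.59-fold lower with DAPT and 1.54-fold lower with DNMAML-ER. The 3 treated levels lay close together and under all 3 vehicle levels.

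ENSMUSG00000040964 had 8.48 with OHT and 9.36 with ethanol in the Notch1-ER line, 7.77 with DAPT and 9.46 with DMSO, and 7.20 with OHT and 8.98 with ethanol in the DNMAML-ER line. It was 1.84-fold, 3.22-fold and 3.44-fold lower. Its 3 treated levels lay under all 3 vehicle levels as well, with the Notch1-ER OHT level the highest of the 3.

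Rank 56 had 6.88 with OHT and 7.67 with ethanol in the Notch1-ER line, 6.64 with DAPT and 7.66 with DMSO, and 6.78 with OHT and 7.72 with ethanol in the DNMAML-ER line. Vehicle levels of this gene were within 0.06 of each other, and the treated levels were alike. Rank 55 had 7.10 with OHT and 7.84 with ethanol in the Notch1-ER line, 5.66 with DAPT and 6.80 with DMSO, and 6.73 with OHT and 7.62 with ethanol in the DNMAML-ER line. It was the only 1 of the 6 whose vehicle range, 1.04, exceeded its Notch1-ER difference of -0.74 in size, both fusion lines lying above the parental cells on vehicle.

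Rank 54 had 8.29 with OHT and 8.99 with ethanol in the Notch1-ER line, 7.48 with DAPT and 8.30 with DMSO, and 7.82 with OHT and 8.99 with ethanol in the DNMAML-ER line. The OHT level in the Notch1-ER line was near that of DMSO. Rank 53 had 5.39 with OHT and 5.99 with ethanol in the Notch1-ER line, 5.54 with DAPT and 6.21 with DMSO, and 5.75 with OHT and 6.36 with ethanol in the DNMAML-ER line. This was the only member of the 58 whose lowest level was on the Notch1-ER OHT array. Since the choice fixed all 3 signs of these 6 genes, their shared direction is not a separate result. The part of OHT, or of treatment as such, in their lower levels was not tested.

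Of the 5 members in which the smaller inhibitor effect was greatest, 2 were among the 12 higher genes (ranks 5 and 10) and 1 was ENSMUSG00000040964. Rank 50 had the greatest of all, with 8.41 with DAPT and 10.36 with DMSO, 7.75 with OHT and 10.13 with ethanol in the DNMAML-ER line, and 10.20 with OHT and 10.60 with ethanol in the Notch1-ER line. Its vehicle arrays and the Notch1-ER OHT array were within a narrow band, with both inhibitor arrays far under it. Rank 18 had 4.55 with DAPT and 6.32 with DMSO, 3.62 with OHT and 5.48 with ethanol in the DNMAML-ER line, and 6.08 with OHT and 5.64 with ethanol in the Notch1-ER line. Both inhibitor arrays and the DNMAML-ER ethanol array were under the floor. A deep difference under both inhibitors thus went with a Notch1-ER difference of either sign in these 5 genes.

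The 40 members between the limits lay at a median Notch1-ER difference of 0.09 and ran from -0.43 to 0.58, the upper end being a gene just under the limit. Their median level was 8.19 with OHT and 8.07 with ethanol in the Notch1-ER line. In the same genes the median level was 6.75 with DAPT and 7.77 with DMSO, and 6.84 with OHT and 7.61 with ethanol in the DNMAML-ER line. Their Notch1-ER ethanol levels were therefore, by the median, no lower than those of the other vehicle arrays.

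Over all 58 members the median level was 6.68 with DAPT and 7.64 with DMSO, 6.82 with OHT and 7.66 with ethanol in the DNMAML-ER line, and 8.17 with OHT and 8.07 with ethanol in the Notch1-ER line. The ethanol arrays differed as well: the Notch1-ER line without OHT was higher than the DNMAML-ER line without OHT by a median of 0.15 in the members, against 0.03 in all genes, with 4 members (6.90%) at least 0.58 higher and 0 at least 0.58 lower, against 0.502% and 0.543% of all genes. The DNMAML-ER ethanol array had been used by the rule and the Notch1-ER ethanol array had not.

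Other genes chosen by the same sizes give a setting for these counts. The 167 genes higher by 0.58 or more with both inhibitors (1.38% of all genes) lay at a median of -0.04 in the Notch1-ER pair, with 10 higher (5.99%) and 17 lower (10.2%). The 296 genes lower with DAPT alone had a median of -0.04, with 18 higher (6.08%) and 9 lower (3.04%). The 104 genes lower with DNMAML-ER alone had a median of -0.01, with 7 higher (6.73%) and 8 lower (7.69%). The share that was higher with Notch1-ER was 20.7% in the genes lower with both, and the share that was lower, 10.3%, was close to that of the genes raised by both. The sets were not matched in level: the median of the mean levels was 7.50 in the members and 7.42 in the genes raised by both. It was 6.36 in the genes lower with DAPT alone and 6.01 in those lower with DNMAML-ER alone. The spread of the other sets between vehicle arrays is not given here. With 1 array per condition these differences between sets have no test.

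**Figure D4:**
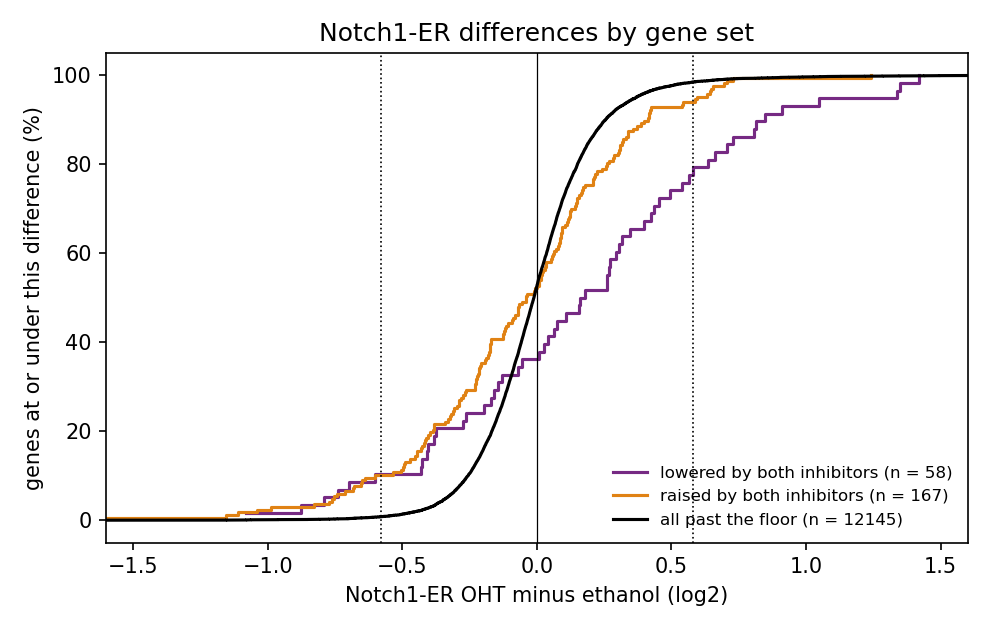
Cumulative share of genes, in percent, against the Notch1-ER OHT minus ethanol log2 difference for the 58 genes lowered by both inhibitors, the 167 genes raised by both and all 12145 genes past the floor. Dotted lines mark 0.58 and -0.58, and a few genes lie beyond the ends of the axis. Both chosen sets are wider than all genes on the lower side, and above 0 the curve of the lowered genes lies to the right of the others.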

How the data were processed

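RNA of 6 cultures was hybridised to 6 Affymetrix arrays. Per the submitters' processing notes, the authors used RMA to make the deposited log2 values. RMA corrects background and equalises distributions, so a global change in RNA content would not be seen. They cover 22414 probe sets, each named by an Ensembl gene identifier, with values from 1.51 to 14.0 and 0 missing. For the array model, annotation and genome build, the sources used here give no name. Precision is limited by the number of arrays.

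Treated minus vehicle differences were computed with Python 3.11.15 and pandas 2.3.3. The floor of 5.54 is the median, over probe sets, of the mean level. Alternative normalizations used limma 3.58.1 in R 4.3.3. Counts over members stand beside counts over all genes. The preset naming, role and promoter rules need symbols and could not be applied; levels on each array were given for members at least 0.58 higher or lower with Notch1-ER and for the 5 with the largest shared loss. The members, lists and sizes were chosen with earlier results of these data known.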

Additional observations from a re-analysis of the deposited data

Results flagged for a closer look

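OHT against ethanol was compared in 2 lines, and 12 of the 58 members went in opposite directions in them, higher by at least 0.58 in the Notch1-ER line and lower by at least 0.58 in the DNMAML-ER line. The largest Notch1-ER differences were those of ENSMUSG00000046997, at 1.42 in the Notch1-ER line and -0.72 in the DNMAML-ER line, and of ENSMUSG00000049154, at 1.35 and -0.69. The lower direction in the DNMAML-ER line was fixed for all 58 by the choice of members, so these are the same 12 higher genes described above. The share at least 0.58 higher in the Notch1-ER line was 20.7% of the members. It was 6.73% of the 104 genes lower with DNMAML-ER alone and 1.53% of all genes. No test of this difference between lines was made, since each had a single array for OHT and for ethanol.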

How the results depend on the processing

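Under a second quantile normalization, cyclic loess, centred differences and both other floors, the number of members stayed between 52 and 66, the Notch1-ER median between 0.13 and 0.17, the number at least 0.58 higher between 10 and 15 and the number at least 0.58 lower between 5 and 6. Of the 58 members, 53 were found again with quantile normalization and 53 with cyclic loess. In the Notch1-ER pair, all 12 higher and all 6 lower members kept their sign and stayed past 0.58 under both normalizations. This looked at that pair only. Members chosen anew included 5 lower genes under each normalization, so not all 6 met the inhibitor rule again. Without a floor there were 79 members, the median was 0.10, with 11 lower, because weakly expressed genes enter. At an inhibitor size of 1 there were 11 members with a median of 0.43, of which 8 were above 0, 4 were at least 0.58 higher and 1 was at least 0.58 lower. At an inhibitor size of 0.4 there were 191 members, the median was -0.021, on the other side of 0, 93 were above 0 (48.7%, against 47.3% of all genes), 19 were at least 0.58 higher (9.95%, against 1.53%) and 7 at least 0.58 lower (3.66%, against 0.815%). The median and the share above 0 thus depended on the size that chooses the members, while both outer shares stayed above those of all genes; the cause was not tested. Counted at a Notch1-ER size of 1, 4 of the 58 members were higher (6.90%, against 0.379% of all genes) and 1 lower (1.72%, against 0.148%). The promoter motif and the fixed gene lists were not run, since no identifier matched a symbol. Every difference was taken within a treated and vehicle pair, and no fit with a replicate block could be made, since each condition has 1 array. With 1 array per condition no replicate could be left out.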
